A study of Mus musculus with 6 samples.

Results

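FGF, HGF and EGF family signals are secreted growth factors and their receptors. The 10 genes described here were taken by name, by a rule that uses no measured value, though with earlier results of these data known. They are the FGF ligands Fgf2, Fgf7, Fgf10 and Fgf18, the FGF receptors Fgfr1 and Fgfr2, the ligand Hgf, the EGF family ligands Hbegf and Nrg1, and the receptor Egfr. All 10 were found among the 12235 genes of the deposited table and none was absent. RNA had been measured in cancer-associated fibroblasts that carry podoplanin (pCAFs), sorted from tumours of 4T1 cells, a BALB/c mammary carcinoma line. There were 3 libraries of Ly6C+ pCAFs (Ter119-, CD45-, EpCAM-, PDPN+, LY6C+) and 3 of Ly6C- pCAFs (the same gate, LY6C-). Every mouse was a BALB/c female of 8 weeks that had received 100000 4T1 cells in the lower left mammary fat pad, so no group came from normal mammary gland. The labels call the injected cells a GFP line in one field and a luciferase line in another, and give no mutant allele. They do not say whether a library is 1 mouse or a pool, so p-values measure the spread between these libraries.

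Fibroblast growth factors bind receptor tyrosine kinases (FGFRs) together with heparan sulfate, the sugar chain of cell-surface and matrix proteoglycans. HGF is made by mesenchymal cells as an inactive precursor that proteases cleave before it binds MET on epithelium. EGF family ligands are made as membrane proteins, released by shedding proteases, and bind EGFR and its ErbB relatives. All these receptors signal through adaptors to RAS and the kinases RAF, MEK and ERK, which switch on transcription factors and their own inhibitors. In tumours, fibroblasts are known as a source of FGF7, HGF and other ligands that act on neighbouring carcinoma cells.

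Values are normalised counts, meaning reads per gene divided by 1 size factor per library. The libraries read the 3′ ends of mRNA, and levels of different genes are not compared here. The table held 2150531 to 2818269 reads in Ly6C+ and 1176909 to 1721480 in Ly6C- libraries. The gene of the sorted antigen, Ly6c1, stood at 3849, 3142 and 2316 in Ly6C+ and at 88.6, 77.4 and 65.6 in Ly6C- libraries. The summed level of 10 fibroblast markers was 67779 to 76553 in Ly6C+ and 46904 to 61024 in Ly6C- libraries. Of the 10, 5 were higher in Ly6C+ pCAFs and 1, Pdgfrb, was lower (333 in Ly6C+ against 799 in Ly6C- pCAFs). The other 4, among them Col1a1 and Col1a2, did not pass the test given below. Epcam stayed at or below 2.95 and Ptprc (CD45) at or below 4.88. Ptprc had 8, 2 and 2 reads across the Ly6C+ libraries and 0, 0 and 0 across the Ly6C- libraries. It was too low for the test, but with no filter it passed as higher in Ly6C+ pCAFs (limma adjusted p = 0.0290). Some markers of other cell types moved with the groups. The sum of 12 epithelial markers was 18.3 to 61.0 in Ly6C+ and 121 to 410.4 in Ly6C- libraries. Of 5 tested, 2, the keratins Krt14 and Krt19, were lower in Ly6C+ pCAFs and 3 did not pass, and Cdh1 was at or below 1.97 throughout. The sum of 9 pericyte and smooth muscle markers was 197 to 253 in Ly6C+ and 732 to 1191 in Ly6C- libraries. Of 8 tested, 6 were lower in Ly6C+ and 1, Kcnj8, higher (118 in Ly6C+ against 30.1 in Ly6C- pCAFs). For 9 leukocyte markers it was 139.9 to 369.6 in Ly6C+ and 62.9 to 193 in Ly6C- libraries. Only 1 of 7 tested passed, Lyz2, which was higher in Ly6C+ (130 in Ly6C+ against 10.4 in Ly6C- pCAFs). The sum of 5 endothelial markers in the table was 21.0 to 41.5 in Ly6C+ and 22.3 to 128 in Ly6C- libraries, with Tek higher and Kdr and Egfl7 lower in Ly6C+. For 12 early genes that tissue dissociation induces it was 41527 to 44198 in Ly6C+ and 19628 to 22858 in Ly6C- libraries, 10 of the 12 being higher in Ly6C+. The part of these markers in the results that follow was not tested.

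Among the ligands, Fgf7 and Fgf18 were about 3-fold higher in Ly6C+ pCAFs (2.99-fold and 2.98-fold), and Hbegf was 5.72-fold higher in Ly6C- pCAFs. Of the receptors, neither Fgfr1 nor Egfr passed the test. In these bulk libraries, fewer cells of a type and less RNA per cell cannot be told apart. The test was limma on log2(value + 1) over the 9646 genes with a mean of at least 5, with Benjamini-Hochberg adjusted p under 0.05. It covered 7 of the 10 genes, and Fgf2, Fgf10 and Fgfr2 fell under the minimum. Among the 7 genes tested, 2 rose, 1 fell and 4 did not pass, where 17.1% of all tested genes passed, 9.41% higher and 7.66% lower in Ly6C+ pCAFs. In 4 of the 7, Fgf7, Fgf18, Fgfr1 and Hbegf, every value of one group lay beyond every value of the other, which held for 33.1% of all tested genes (17.1% higher and 16.1% lower in Ly6C+ pCAFs).

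**Figure D1:**
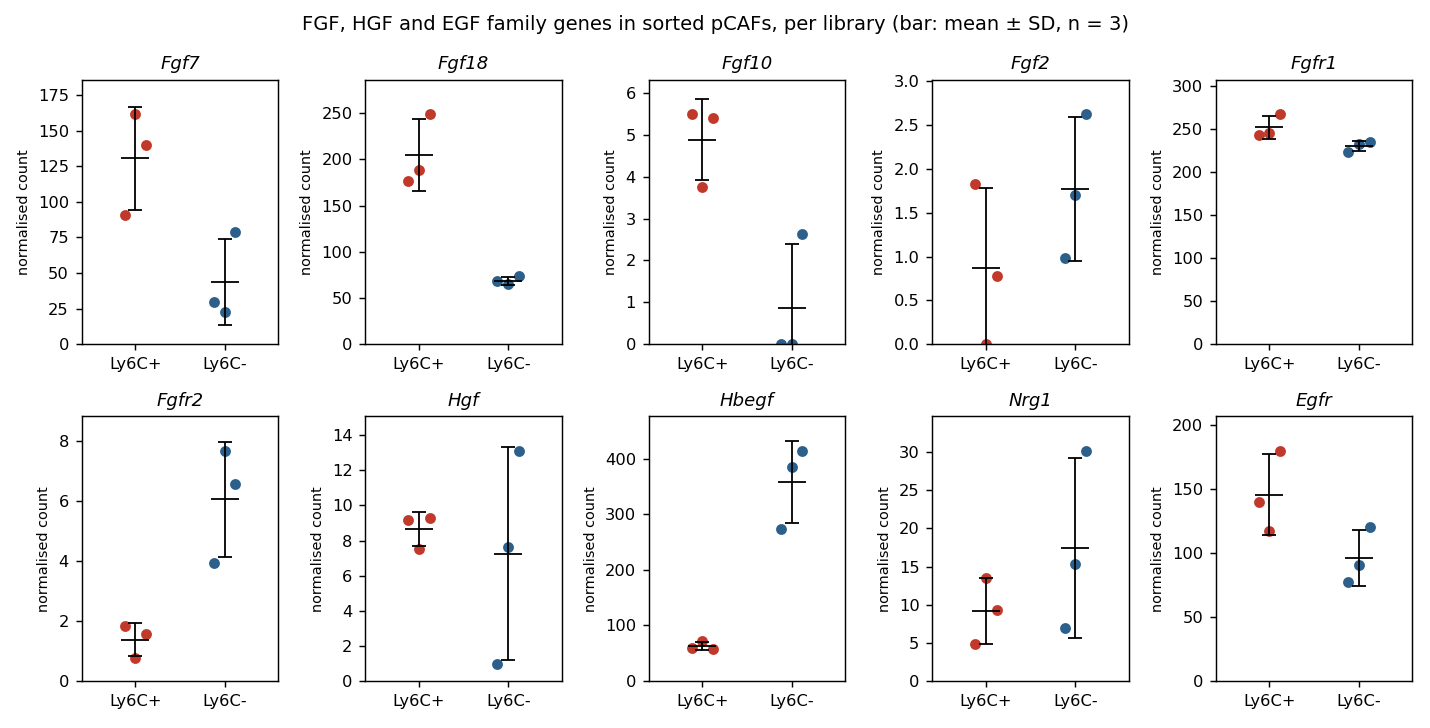
Normalised count of each of the 10 genes in each library (points), with mean ± SD (n = 3 per group), Ly6C+ left and Ly6C- right; each panel has its own axis from 0. Fgf7 and Fgf18 stand higher in all Ly6C+ libraries, with means of 131 and 205 in Ly6C+ against 43.7 and 68.7 in Ly6C- libraries, and Hbegf stands lower, with a mean of 62.6 in Ly6C+ against 358 in Ly6C- libraries.

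Fgf7 and Fgf18 encode paracrine FGFs. FGF7, or keratinocyte growth factor, is made by mesenchymal cells and acts on epithelial cells through a splice form of FGFR2. FGF18 can signal through FGFR3 and is known for its role in bone, cartilage and lung. The pair rose together, so the 250 bases before the start of each gene are shown, at chr2:126034408-126034657 on the plus strand for Fgf7 and chr11:33147401-33147650 on the minus strand for Fgf18 (RefSeq, GRCm38.p6, 5′ to 3′ in the gene's direction). RefSeq entries were found for 7 of the 10 genes, the others being Fgfr1, Hbegf and Nrg1. Capitals mark matches to any of 5 motifs searched on both strands. TGTGGT is a core of sites bound by RUNX factors, and TGANTCA is the site of the Fos and Jun proteins that form AP-1. The GC box, which Sp1 and its relatives bind, was searched as GGGCGG, and the TATA box of core promoters was searched as TATAAA. The last was GGAATG, bound by TEAD factors.
Fgf7: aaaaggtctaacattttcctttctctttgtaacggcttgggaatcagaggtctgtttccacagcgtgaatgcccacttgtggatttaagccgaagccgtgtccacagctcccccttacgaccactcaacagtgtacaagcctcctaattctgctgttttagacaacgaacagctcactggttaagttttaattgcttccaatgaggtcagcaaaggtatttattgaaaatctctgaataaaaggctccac
Fgf18: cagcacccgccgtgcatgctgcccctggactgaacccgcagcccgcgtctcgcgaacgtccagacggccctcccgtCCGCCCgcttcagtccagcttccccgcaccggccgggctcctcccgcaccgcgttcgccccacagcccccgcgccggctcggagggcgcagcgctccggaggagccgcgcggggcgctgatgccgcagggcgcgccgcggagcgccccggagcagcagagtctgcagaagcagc
The Fgf7 window held none of the 5 motifs and had 43.6% G and C. The Fgf18 window had 77.2% G and C and 1 GC box, on the reverse strand, beginning 174 bases before the start. Windows of the same length hold a RUNX match in 14% of 32851 cases, AP-1 in 6.75%, a GC box in 32.7%, TATA in 12.4% and TEAD in 12.6%, and their median G and C content is 52.4%. Matches are a description of these letters and no sign of binding.

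Fgf7 (chromosome 2, 126034658 to 126091185, plus strand, protein coding, mm10) stood at 90.9, 162 and 139.9 across the Ly6C+ libraries, against 29.5, 23.0 and 78.7 in the Ly6C- libraries. The groups did not overlap, but the highest Ly6C- library, replicate 3, came close to the lowest Ly6C+ library, replicate 1. The log2 fold change was 1.72 (SE 0.40; limma adjusted p = 0.0114). The ratio of means was 2.99, with 131 ± 36.2 in Ly6C+ and 43.7 ± 30.4 in Ly6C- pCAFs (SD, n = 3 each). Without Ly6C- replicate 3 the ratio of means was 4.98. The call ended without Ly6C+ replicate 2 (adjusted p = 0.0518), without Ly6C- replicate 2 (adjusted p = 0.0535) and with no filter on low values (adjusted p = 0.0623). Fam227b, on the opposite strand, covers the 3′ end of Fgf7 and is not in the table analysed. How strands were counted is not given in the sources used here.

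Fgf18 (chromosome 11, 33117430 to 33147400, minus strand, protein coding) stood at 176, 189 and 249 across the Ly6C+ libraries, against 67.9, 64.7 and 73.4 in the Ly6C- libraries. The Ly6C- libraries lay within a narrow band, far below the lowest Ly6C+ library. The log2 fold change was 1.55 (SE 0.19, 95% interval 1.13 to 1.96; limma adjusted p = 0.000199), a ratio of 2.98 between means of 205 ± 38.8 in Ly6C+ and 68.7 ± 4.43 in Ly6C- pCAFs. It passed in each of 19 alternative settings. Ordered by log2 fold change among the 9646 tested genes, Fgf7 was number 397 and Fgf18 number 478 from the highest.

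Fgf10, which signals from mesenchyme to epithelium in budding organs such as the mammary gland, was close to the detection limit. It had 9, 5 and 7 reads across the Ly6C+ libraries, against 0, 0 and 2 in the Ly6C- libraries. The ratio, corrected for size factors, was 7.27, with an exact 95% counting interval of 1.78 to 64.0. That interval covers counting error only, and the gene lay under the minimum for the test. With no filter it did not pass (limma adjusted p = 0.0714). Fgf2, basic FGF, had 3, 0 and 1 reads in Ly6C+ and 1, 2 and 2 reads in Ly6C- libraries, too few to order the groups (ratio 0.554, counting interval 0.110 to 2.58). Its 3′ end lies under Nudt6 on the opposite strand, which stood at 17.1, 11.3 and 8.499 in Ly6C+ and at 6.89, 7.66 and 10.5 in Ly6C- libraries, so reads there may be divided uncertainly.

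Of the 18 other FGF ligand genes, 4 were in the table and tested. Of these 1 rose and 1 fell, beside 9.41% higher and 7.66% lower over all tested genes. Fgf23, the bone-derived hormone of phosphate balance, stood at 137, 228 and 92.7 across the Ly6C+ libraries, against 12.8, 6.81 and 11.8 in the Ly6C- libraries. It was 14.6-fold higher in Ly6C+ pCAFs, with groups far apart (limma log2 fold change 3.69 with SE 0.34; adjusted p = 2.98e-05). Fgf21, a stress-induced metabolic hormone of the liver, went the other way, at 0, 4.51 and 2.32 across the Ly6C+ libraries, against 33.5, 36.6 and 51.1 in the Ly6C- libraries (limma log2 fold change -3.95 with SE 0.56; adjusted p = 0.000574). The ratio of means was 17.7 in favour of Ly6C- pCAFs, but 11.8 without Ly6C+ replicate 1 and 34.8 without Ly6C+ replicate 2. Fgf21 had 9 reads in Ly6C+ and 116 in Ly6C- pCAFs in all. Fgf1, acidic FGF, averaged 21.5 ± 8.55 in Ly6C+ and 8.72 ± 7.25 in Ly6C- pCAFs and did not pass (limma adjusted p = 0.0965, or 0.00897 without Ly6C- replicate 1), and Fgf11, an intracellular family member, averaged 35.0 in Ly6C+ and 34.6 in Ly6C- pCAFs. The other 14 are not in the table analysed.

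Fgfr1, the FGF receptor typical of mesenchymal cells, did not pass (chromosome 8, 25513654 to 25575718, plus strand). It stood at 243, 246 and 267 across the Ly6C+ libraries, against 223, 232 and 235 in the Ly6C- libraries. The groups did not overlap, but the gap was small: the log2 fold change was 0.13 with a 95% interval of -0.21 to 0.47 (limma adjusted p = 0.646), which spans 0.867-fold to 1.38-fold. Its sign turned when each library was scaled to its own total (-0.064), a scaling that moved the median of all tested genes by -0.19. Fgfr2, the receptor whose epithelial splice form binds FGF7 and FGF10, had 3, 1 and 2 reads across the Ly6C+ libraries, against 4, 9 and 5 in the Ly6C- libraries. Every Ly6C- library had more reads than any Ly6C+ library despite their lower depth. The ratio was 0.231 (counting interval 0.0750 to 0.607), and with no filter it passed as lower in Ly6C+ pCAFs (limma log2 fold change -1.56; adjusted p = 0.0347), on 6 reads in Ly6C+ and 18 in Ly6C- pCAFs. In GENCODE M21 the Fgfr2 gene model overlaps 69 others.

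Of 11 other FGF receptor and cofactor genes, 8 were in the table and 3 were tested. Of these 1 rose, beside 9.41% of all tested genes. Flrt2, a membrane protein of a family that binds FGF receptors, stood at 47.6, 54.1 and 45.6 across the Ly6C+ libraries, against 33.5, 4.25 and 7.87 in the Ly6C- libraries (limma log2 fold change 2.09 with SE 0.55; adjusted p = 0.0218). The ratio of means was 3.23, or 8.10 without Ly6C- replicate 1, and the call ended without any 1 of the Ly6C+ libraries or Ly6C- replicate 2 (highest adjusted p = 0.0822). Fgfrl1, a receptor without a kinase domain, averaged 45.8 ± 4.22 in Ly6C+ and 52.9 ± 10.8 in Ly6C- pCAFs, and Il17rd (Sef), an inhibitor of FGF signalling, 28.7 ± 5.98 in Ly6C+ and 25.1 ± 7.58 in Ly6C- pCAFs, and neither passed. Fgfr3, which encodes a receptor of FGF18, stayed at or below 3.40, and Fgfr4 at or below 0.851 in every library.

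Genes of heparan sulfate, which FGFs, HB-EGF and HGF bind, moved in both directions. Of 20 tested genes 3 were higher in Ly6C+ pCAFs, 4 lower and 13 did not pass, beside 9.41% higher and 7.66% lower over all tested genes. The median log2 fold change of the list was 0.18 beside -0.00070 for all tested genes. Sdc1, the proteoglycan syndecan-1, stood at 290.3, 339 and 314 across the Ly6C+ libraries, against 1216, 1214 and 1422 in the Ly6C- libraries. That is 4.08-fold higher in Ly6C- pCAFs (limma log2 fold change -2.02 with SE 0.15; adjusted p = 7.68e-06). The glypican gene Gpc1, which encodes a membrane proteoglycan, stood at 382, 404 and 278 in Ly6C+ and at 819.8, 806 and 916 in Ly6C- libraries (limma adjusted p = 0.000526). The sulfotransferase gene Hs6st1, whose enzyme adds 6-O-sulfate to the chain, fell alike, at 55.2 ± 3.69 in Ly6C+ and 140.0 ± 18.7 in Ly6C- pCAFs (limma adjusted p = 0.000526). Sulf2, an extracellular sulfatase that removes 6-O-sulfate, moved the opposite way to Hs6st1: it stood at 265, 315 and 336 across the Ly6C+ libraries, against 79.7, 73.2 and 56.4 in the Ly6C- libraries, 4.38-fold higher in Ly6C+ pCAFs (limma log2 fold change 2.12 with SE 0.19; adjusted p = 2.47e-05). Sulf1, named after its values were seen, averaged 339.6 in Ly6C+ and 305 in Ly6C- pCAFs and did not pass (limma adjusted p = 0.572). The other genes that passed, also named after their values were seen, were Gpc3 and Hpse (heparanase), which rose with log2 fold changes of 2.02 and 1.56, and Sdc3, which fell (-0.87) and lost its call without Ly6C+ replicate 1 or 3 or Ly6C- replicate 1 or 2 (highest adjusted p = 0.133). The 3′ end of Sulf2 lies under Ncoa3 on the opposite strand, which stayed at or below 6.89.

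Hgf, the ligand of MET and a classical fibroblast product, was low in both groups (chromosome 5, 16553495 to 16620152, plus strand). It stood at 9.15, 7.52 and 9.27 across the Ly6C+ libraries, against 0.984, 7.66 and 13.1 in the Ly6C- libraries. The Ly6C- libraries spanned the whole Ly6C+ range, and Ly6C- replicate 1 had a single read where the others had 9 and 10. The log2 fold change of 0.62 had a 95% interval of -0.79 to 2.04 (limma adjusted p = 0.589), wide enough to hold a 4.10-fold difference. It turned to -0.20 without Ly6C- replicate 1, and the ratio of means, 1.19, was 2.00 without Ly6C- replicate 3.

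Of 5 tested genes among the activators and inhibitors of HGF, its receptor and the related receptor RON, 2 rose and none fell. Over all tested genes 9.41% rose and 7.66% fell. Plat, tissue plasminogen activator, which can cleave the HGF precursor, stood at 1801, 1751 and 2611 across the Ly6C+ libraries, against 1280, 1184 and 873 in the Ly6C- libraries (limma log2 fold change 0.88 with SE 0.21; adjusted p = 0.0138). It did not pass after quantile normalization (log2 fold change 0.65; adjusted p = 0.0756), nor in 3 other settings (adjusted p = 0.0505 to 0.0599). Mst1r, the receptor RON of the related ligand MSP, stood at 79.9, 78.2 and 107 in Ly6C+ and at 50.2, 46.8 and 24.9 in Ly6C- libraries (limma adjusted p = 0.0151, or 0.0643 without Ly6C+ replicate 3 and 0.0521 with no filter). Plau, the urokinase gene, averaged 35.9 ± 7.68 in Ly6C+ and 21.1 ± 6.03 in Ly6C- pCAFs and did not pass (limma adjusted p = 0.107). The inhibitor gene Spint2 averaged 2.68 in Ly6C+ and 7.78 in Ly6C- pCAFs and did not pass either. Met itself stayed at or below 3.05 in every library, with 11 reads in Ly6C+ and 2 in Ly6C- pCAFs in all.

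Hbegf encodes heparin-binding EGF-like growth factor, a membrane-anchored EGFR ligand known as an early-response gene of RAS and ERK signalling. It was the member that fell (chromosome 18, 36504927 to 36515805, minus strand). Hbegf stood at 58.6, 71.4 and 58.0 across the Ly6C+ libraries, against 274, 386 and 414 in the Ly6C- libraries. The lowest Ly6C- library lay far above the highest Ly6C+ library. The log2 fold change was -2.48 (SE 0.20, 95% interval -2.93 to -2.04; limma adjusted p = 1.14e-05), with means of 62.6 ± 7.60 in Ly6C+ and 358 ± 74.5 in Ly6C- pCAFs (SD, n = 3 each), a ratio of 5.72 in favour of Ly6C- pCAFs. It ranked 142 from the lowest log2 fold change among 9646 tested genes and passed in each of 19 alternative settings (log2 fold change -2.67 to -2.36).

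Nrg1 encodes neuregulin 1, a ligand of ERBB3 and ERBB4 (chromosome 8, 31814551 to 32884029, minus strand). It stood at 4.88, 13.5 and 9.27 across the Ly6C+ libraries, against 6.89, 15.3 and 30.2 in the Ly6C- libraries. The groups overlapped and both varied several-fold within themselves. The log2 fold change of -0.73 had a 95% interval of -1.87 to 0.41 (limma adjusted p = 0.403), and the ratio of means, 0.529, was 0.831 without Ly6C- replicate 3. Of 9 other EGF family ligand genes 3 were in the table and 2 were tested, with neither passing. Areg, amphiregulin, averaged 3.60 ± 1.48 in Ly6C+ and 8.19 ± 2.80 in Ly6C- pCAFs (limma adjusted p = 0.195). Ereg, epiregulin, stood at 14.6, 27.1 and 16.2 in Ly6C+ and at 7.87, 23.8 and 70.8 in Ly6C- libraries, where replicate 3 was far above the others.

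Egfr, the receptor of HB-EGF, amphiregulin and epiregulin, leaned towards Ly6C+ pCAFs without passing (chromosome 11, 16752203 to 16918158, plus strand). It stood at 139.7, 117 and 180.0 across the Ly6C+ libraries, against 77.8, 91.0 and 121 in the Ly6C- libraries. The highest Ly6C- library, replicate 3, overlapped the lowest Ly6C+ library, replicate 2. Means were 146 ± 31.8 in Ly6C+ and 96.5 ± 21.9 in Ly6C- pCAFs, a ratio of 1.51 (log2 fold change 0.59, SE 0.23, 95% interval 0.09 to 1.09; limma unadjusted p = 0.0238, adjusted p = 0.105). Leaving out Ly6C- replicate 3 brought it past the threshold (0.76 on the log2 scale, limma adjusted p = 0.0370). Fits of Egfr with a replicate block, which changed its call, stand in the section on processing. Erbb2, the co-receptor without a ligand of its own, averaged 23.7 ± 1.09 in Ly6C+ and 28.6 ± 4.33 in Ly6C- pCAFs and did not pass. The 3′ end of Erbb2 touches Mien1 on the opposite strand. Mien1 stood at 358, 224 and 145 in Ly6C+ and at 188, 219 and 216 in Ly6C- libraries, so reads there may be divided uncertainly. Erbb3 stayed at or below 3.66.

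**Figure D2:**
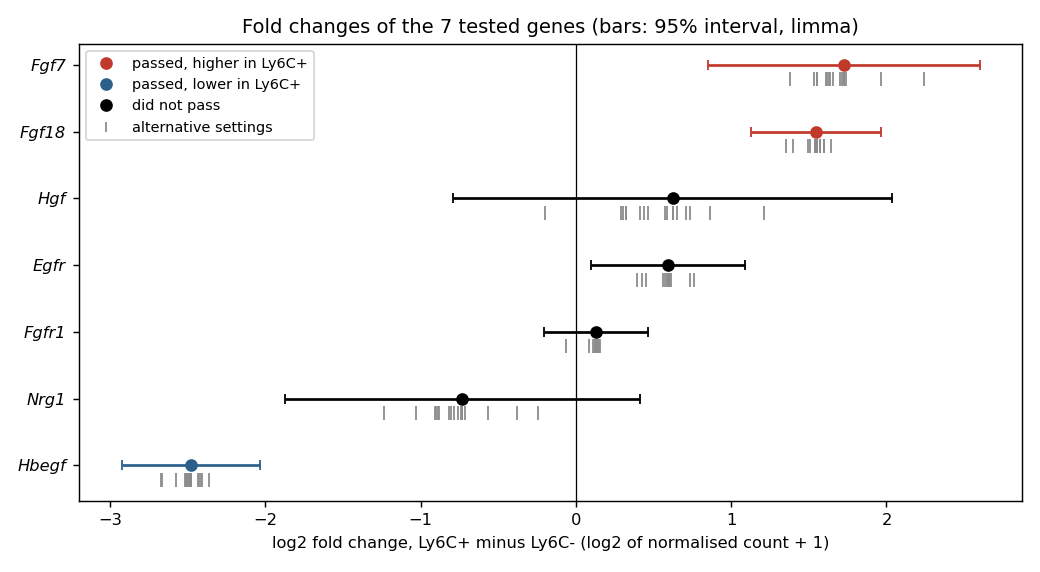
Log2 fold change (x axis, Ly6C+ minus Ly6C-, on log2 of normalised count + 1) of the 7 tested genes, with 95% limma intervals, and below each the values in the alternative settings (grey ticks). Fgf7 and Fgf18 lie at 1.72 and 1.55 and Hbegf at -2.48, while the intervals of Hgf, Fgfr1 and Nrg1 span 0 and that of Egfr, 0.09 to 1.09, does not, although it did not pass after adjustment.

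Of 8 tested genes that release EGF family ligands or control that release, 3 fell and none rose. Over all tested genes 7.66% fell and 9.41% rose. Rhbdf2, the gene of iRhom2, which carries the shedding protease ADAM17 to the cell surface, stood at 9.15, 6.01 and 6.95 across the Ly6C+ libraries, against 95.5, 66.4 and 48.5 in the Ly6C- libraries. It was 9.51-fold higher in Ly6C- pCAFs (limma log2 fold change -3.05 with SE 0.31; adjusted p = 5.16e-05), in the same direction as Hbegf. Timp3, an inhibitor of ADAM17 and other metalloproteinases, was also lower in Ly6C+ pCAFs, at 411 ± 125 against 1383 ± 109 in Ly6C- pCAFs (limma adjusted p = 0.000128). The protease gene Adam19 averaged 70.4 ± 13.5 in Ly6C+ and 129.7 ± 26.3 in Ly6C- pCAFs (limma adjusted p = 0.0184), and lost its call without Ly6C+ replicate 1 or 3 or Ly6C- replicate 2 (highest adjusted p = 0.102). Adam9 averaged 222 in Ly6C+ and 134 in Ly6C- pCAFs and did not pass (limma adjusted p = 0.0985, or 0.0334 without Ly6C+ replicate 1 and 0.0273 without Ly6C- replicate 3). Adam17, named after its values were seen, averaged 117 in Ly6C+ and 106 in Ly6C- pCAFs and did not pass (limma adjusted p = 0.655). The 3′ end of Timp3 lies under Syn3, a gene of the opposite strand.

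Of 6 tested genes that restrain ErbB receptors or act on their turnover 0 passed by limma, and edgeR with TMM and no replicate block also called 0. Calls with a replicate block are given in the section on processing. An unadjusted limma p under 0.05 was found for 2, Errfi1 and Lrig3. Lrig3 averaged 63.7 in Ly6C+ and 40.3 in Ly6C- pCAFs (limma adjusted p = 0.0984). Errfi1 (Mig6), an inhibitor that binds the EGFR kinase, stood at 315, 445 and 323 across the Ly6C+ libraries, against 24.6, 167 and 350.0 in the Ly6C- libraries (limma adjusted p = 0.151). The Ly6C- libraries ranged from far below to inside the Ly6C+ range, and the gene passed without Ly6C- replicate 3 (adjusted p = 0.0115). Of 10 tested adaptor genes 0 passed by limma and 0 by edgeR with TMM, both without a block, and 1 had an unadjusted limma p under 0.05. It was Shc1, at 143 ± 9.55 in Ly6C+ and 197 ± 25.4 in Ly6C- pCAFs (limma adjusted p = 0.101), which passed as lower when libraries were scaled to their own totals (log2 fold change -0.65; adjusted p = 0.0223). In the RAS to ERK cascade, 1 of 12 tested rose and 1 fell, near the 9.41% higher and 7.66% lower over all tested genes. Ksr1, a scaffold for RAF, MEK and ERK, averaged 111 ± 15.6 in Ly6C+ and 41.2 ± 24.5 in Ly6C- pCAFs (limma adjusted p = 0.00937, or 0.0502 with no filter), a ratio of 2.69 that became 4.05 without Ly6C- replicate 1. Map2k1, which encodes MEK1, averaged 123 ± 25.5 in Ly6C+ and 233 ± 79.0 in Ly6C- pCAFs (limma adjusted p = 0.0315), and lost its call without Ly6C+ replicate 1 or 3 or Ly6C- replicate 3 (highest adjusted p = 0.134).

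A list of genes that ERK switches on, many of them its own inhibitors, had 12 tested members. Of these 6 fell, 1 rose and 5 did not pass, beside 7.66% lower and 9.41% higher over all tested genes. Their median log2 fold change was -0.76. Etv4, an ETS transcription factor induced by FGF and EGF signals, stood at 25.6, 33.8 and 23.2 across the Ly6C+ libraries, against 279, 353 and 287 in the Ly6C- libraries. It was 11.1-fold higher in Ly6C- pCAFs (limma log2 fold change -3.44 with SE 0.21; adjusted p = 1.47e-06). Dusp4, a nuclear phosphatase of ERK, stood at 0, 3.01 and 1.55 across the Ly6C+ libraries, against 49.2, 36.6 and 56.4 in the Ly6C- libraries (limma log2 fold change -4.46 with SE 0.50; adjusted p = 0.000106). On 6 Ly6C+ reads its ratio of means was 31.2 in favour of Ly6C- pCAFs, 20.8 without Ly6C+ replicate 1 and 61.3 without Ly6C+ replicate 2. Dusp6, the cytoplasmic ERK phosphatase, stood at 25.0, 21.8 and 20.1 across the Ly6C+ libraries, against 47.2, 67.2 and 99.6 in the Ly6C- libraries (limma adjusted p = 0.00257). Spred3, which belongs to a family of RAS pathway inhibitors, stood at 34.8, 33.8 and 25.5 in Ly6C+ and at 65.9, 76.6 and 68.2 in Ly6C- libraries (limma adjusted p = 0.00356).

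These 4 ERK output genes passed in each of 19 alternative settings. The others that passed, named after their values were seen, rested on smaller margins. The ERK phosphatase gene Dusp5 (log2 fold change -1.32; limma adjusted p = 0.0193) and the Sprouty gene Spry1, a receptor kinase inhibitor (-0.68; limma adjusted p = 0.0466), fell. Dusp5 lost its call without any 1 Ly6C+ library or Ly6C- replicate 3 (highest adjusted p = 0.0620), and Spry1 without any 1 of the 6 libraries (highest adjusted p = 0.159). Phlda1 rose (0.73; limma adjusted p = 0.0273) and lost its call without any 1 library other than Ly6C- replicate 3 (highest adjusted p = 0.0884). Etv5, a close relative of Etv4 named after its values were seen, averaged 14.5 in Ly6C+ and 22.5 in Ly6C- pCAFs and did not pass (limma adjusted p = 0.399). Fosl1, a list member also named after its values were seen, averaged 240 in Ly6C+ and 164 in Ly6C- pCAFs and did not pass (limma adjusted p = 0.0885). The early genes that tissue dissociation induces are not in this list, and 10 of those 12 were higher in Ly6C+ pCAFs and 0 lower. Among them Fos, Egr1 and Dusp1 were 2.07-fold, 1.75-fold and 3.01-fold higher. Etv4, Dusp4, Dusp6 and Spred3 moved in the direction of Hbegf, Rhbdf2, Timp3, Sdc1 and Fgf21, and opposite to Fgf7, Fgf18 and Fgf23. Between 2 groups every gene that passed goes 1 of these 2 ways, so a shared direction shows no link between genes. Over all 11 lists of other pathway genes, 9 of 83 tested genes were higher in Ly6C+ pCAFs, 15 were lower and 59 did not pass, beside 9.41% higher and 7.66% lower over all tested genes. Their median log2 fold change was -0.04.

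**Figure D3:**
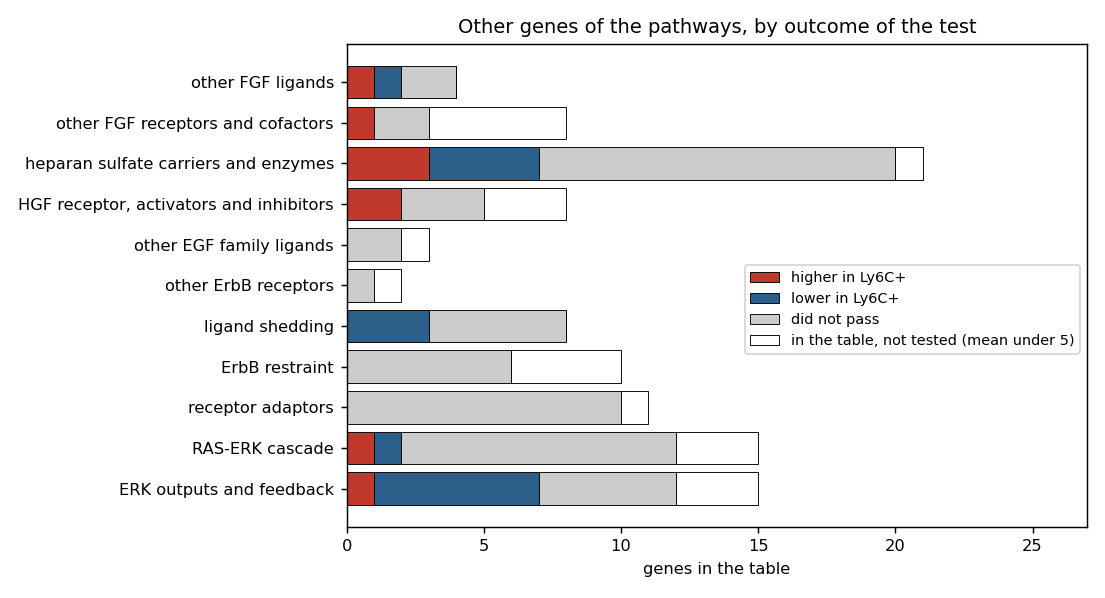
Number of genes (x axis) of each of the 11 lists of other pathway genes (y axis) that were higher or lower in Ly6C+ pCAFs, did not pass, or were in the table but not tested. The list of ERK outputs and feedback has 6 lower and 1 higher of 12 tested, and the heparan sulfate list 3 higher and 4 lower of 20. Over all tested genes 9.41% were higher and 7.66% lower.

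**Figure D4:**
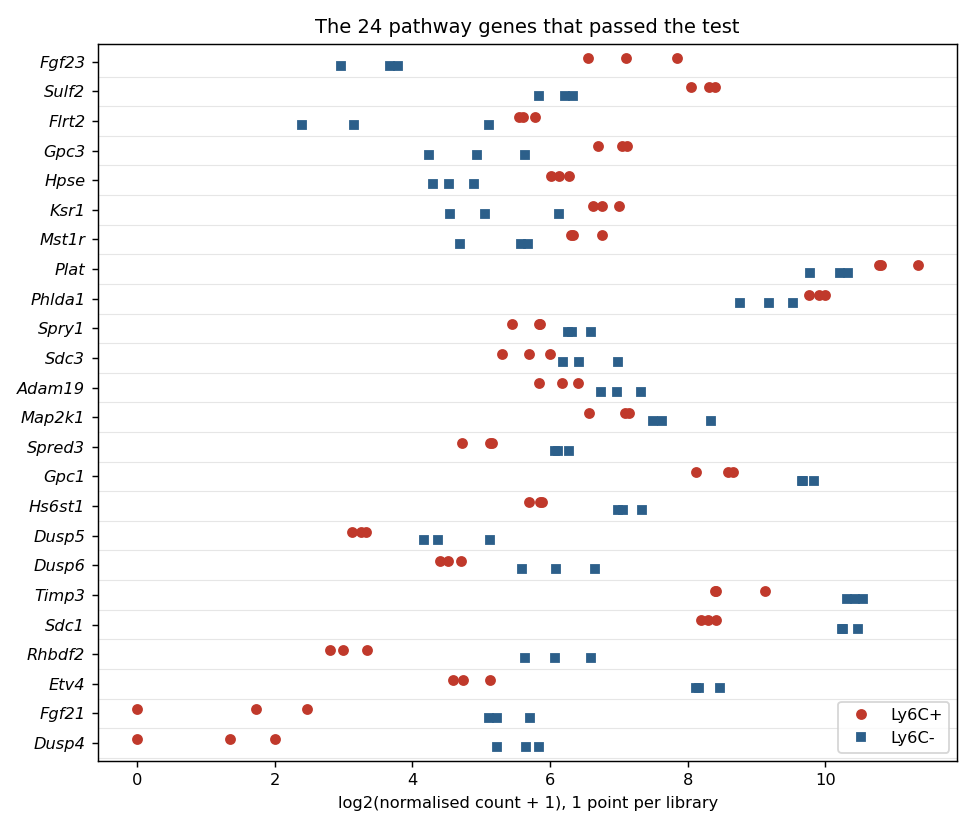
The 24 other pathway genes that passed, ordered by log2 fold change, with log2(normalised count + 1) on the x axis and 1 point per library (circles Ly6C+, squares Ly6C-). Fgf23 and Sulf2 are at the top, higher in Ly6C+, and Etv4, Fgf21 and Dusp4 at the bottom, lower in Ly6C+.

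The genes whose pattern over the 6 libraries was most like that of each tested member were ranked by Pearson's r of log2 values, among 6600 genes with a mean of at least 20. The points share their libraries, depths and the split in 2 groups, and r is given as a description. For Fgf18 they were the monocyte chemokine gene Ccl2 (r = 0.997), the matricellular gene Ccn1 (r = 0.997) and Man2a1 (r = 0.996). For Fgf7 they were Dhrs7 (r = 0.998), Sod1 (r = 0.993) and Clk1 (r = 0.987), and for Hbegf the granzyme gene Gzmd, Nuak1 and Rflna (r = 0.999, 0.998 and 0.998). For Egfr they were Rgma, Iqce and Ctdsp2 (r = 0.999, 0.991 and 0.988), and for Fgfr1 Cic, Lpar1 and Dcaf4 (r = 0.998, 0.983 and 0.981). For Hgf and Nrg1, whose groups overlapped as those of Egfr did, the highest were Top2b (r = 0.991), Ube2b (r = 0.990) and Mzt2 (r = 0.988), and Pmpcb (r = 0.985), Col8a1 (r = 0.982) and Ube2e1 (r = 0.981).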

How the data were processed

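RNA from 6 libraries of sorted fibroblasts was analysed, 3 Ly6C+ and 3 Ly6C- pCAFs. The deposited table holds signal values, which the authors' table calls normalised counts. Tools named per the submitters' processing notes are bcl2fastq, STAR 2.4.2a, HTSeq and the build mm10. The annotation, strand setting, molecular tags and the tool for size factors are not given in the sources used here. Each value proved a whole multiple of 1 step per library (100% within a tolerance of 0.001), so the values are reads divided by 1 factor per library, and whole reads were recovered. Genes with a mean of at least 5 (9646, holding 99.6% of reads) were tested with limma 3.58.1 in R 4.3.3, with a mean-variance trend and no block, on log2(value + 1), which understates changes of low genes. Counts below the minimum carry exact 95% counting intervals, for counting error only. Alternatives were pseudocounts of 0.5 and 5, another filter (none, or a mean of 20), quantile, median-of-ratios and own-total scaling, no trend, a replicate block, edgeR 4.0.16 and DESeq2 1.42.0 on recovered reads, and each library left out. edgeR with TMM called 1721 genes, where limma called 1647. The procedure was tested on simulated data. Positions and overlaps came from GENCODE M21 (mm10), promoter sequences from RefSeq (GRCm38.p6).

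The members and the lists were chosen with earlier results of these data known. Named are all 10 members, up to 4 tested genes per list with the smallest p, all that passed where 5 or fewer did, and the 3 genes most like each tested member. Python 3.11.15 ran the remaining steps, with pandas 2.3.3 for tables, scipy 1.17.1 for intervals and matplotlib 3.10.9 for plots.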

Additional observations from a re-analysis of the deposited data

How the results depend on the processing

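Fgf18 and Hbegf kept their call and direction in all 19 alternatives. Fgf7 (log2 fold change 1.72) did not pass with no filter (1.72) and ran from 1.38 to 2.24 as libraries were left out, failing without Ly6C+ replicate 2 or Ly6C- replicate 2. Egfr passed with the replicate block (0.59; limma adjusted p = 0.0284), with edgeR and the replicate block (0.59; adjusted p = 0.0257) and in 1 of 6 fits that left out a library (0.43 to 0.76). Same-numbered libraries deviated together with r = 0.129, 0.0518 and 0.167, and every library correlated best with its own number. Not all 3 exceed 0.1 and no label pairs the numbers, so they are not taken as pairs; with the block limma called 2088 genes, against 1647 without it. The block in limma also brought in Fgf1 (adjusted p = 0.0183), Adam9 (0.0161), Errfi1 (0.0460) and Lrig3 (0.0346), and with edgeR Fgf1 (0.0292), Adam9 (0.0130), Lrig3 (0.0340) and Shc1 (0.0490). Scaled to own totals, 37.4% of 1936 calls were higher in Ly6C+ against 55.1% of 1647, and Fgfr1 turned to -0.064. Left-out libraries gave 0.088 to 0.16 for Fgfr1, -0.20 to 1.21 for Hgf and -1.24 to -0.24 for Nrg1. Values near 0 that did not pass changed sign too: Fgf11 (0.019) after quantile normalization (-0.0057), scaled to own totals (-0.17) and without libraries (-0.13 to 0.17), Il17rd (0.21) without libraries (-0.048 to 0.39), and Ereg (-0.35) without libraries (-1.10 to 0.40). Of 24 pathway genes that passed, 14 passed in every alternative that tested them. Between 16 and 29 passed over the alternatives. With no filter Flrt2, Sdc3, Plat, Mst1r, Map2k1, Ksr1, Spry1 and Phlda1 lost their calls, and with no mean-variance trend Flrt2, Sdc3, Plat, Adam19, Map2k1, Spry1 and Phlda1. Sos1 and Rasa1, under the minimum and named after their values were seen, passed as higher with no filter (limma adjusted p = 0.0137 and 0.0377). Sos1 had 9 reads in Ly6C+ and 0 in Ly6C- pCAFs, and Rasa1 9 in Ly6C+ and 1 in Ly6C- pCAFs. Fgf2, Fgf10 and Fgfr2 rest on 4, 21 and 6 reads in Ly6C+ and 5, 2 and 18 in Ly6C- pCAFs.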

Other observations

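Within the Ly6C- group, replicate 3 had the highest value for 9 of the 10 genes (all but Fgfr2), where it was the highest for 42.4% of all tested genes. Scaled to own totals it was the highest for 8 of the 10 and for 36.3% of all tested genes. It is also the library with the fewest reads. Of the 10 genes, Fgf2, Fgf10 and Fgfr2 were not tested. Fgf2 and Fgf10 had 2 reads each in Ly6C- replicate 3, for Fgf2 as many as in Ly6C- replicate 2. In the Ly6C+ group the highest values were spread over the libraries, in 3, 3 and 4 of the 10 genes.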
